A study of Mus musculus with 4 samples.

Results

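Expression of 10 genes of brain cholesterol export, turnover and oxysterol signalling was measured in the cerebellum of mice with and without Derlin-2 in the central nervous system: Cyp46a1, Abca1, Abcg1, Abcg4, Apoe, Nr1h2, Nr1h3, Mylip, Soat1 and Npc1. The genes were chosen by function, and every non-control probe of the array whose RefSeq accession names one of them was taken, which gave 17 probes for 10 of the 16524 named genes measured above background. RNA came from C57BL/6 mice at postnatal day 28, on 4 one-colour Agilent arrays, taken here as 1 per mouse. The 2 control mice were Derlin-2flox/flox. For the 2 knockouts (KO), Derl2flox/flox mice had been crossed with nestin-Cre mice. The nestin promoter drives Cre in neural precursors, so neurons, astrocytes and oligodendrocytes are reached, whereas microglia arise outside the neural lineage. The labels do not say whether the controls carried Cre, and do not name the litters. Derlin-2 is a membrane protein of the endoplasmic reticulum that takes part in the removal of misfolded proteins.

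The brain makes its own cholesterol, because lipoproteins of the blood do not cross the blood-brain barrier. Surplus cholesterol leaves neurons mainly after CYP46A1 has turned it into 24S-hydroxycholesterol, which crosses membranes and activates the liver X receptors (LXRs) encoded by Nr1h3 and Nr1h2. LXRs bind DNA as heterodimers with retinoid X receptors and switch on the cholesterol exporters ABCA1 and ABCG1, the carrier apolipoprotein E, and MYLIP (IDOL), a ubiquitin ligase that sends lipoprotein receptors to degradation. In the cerebellum apolipoprotein E comes mostly from astrocytes and Bergmann glia, and the exported particles are taken up by neurons.

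All 4 arrays lay on 1 slide, controls at positions 1 and 2, so position and genotype cannot be told apart. Between 66.4% and 69.4% of the 59305 non-control spots per array were well above background and 0 were saturated. The 2 Derl2 probes carried 37.6% and 30.2% of the control signal in KO, in the direction the labels give. The tissue was as labelled: the 6 Purkinje cell markers and the 5 granule cell markers examined, among them Pcp2 and Gabra6, were well above background on every array. The choroid plexus list stood apart on 1 array, with a summed signal of 140 on control replicate 2 against 6.71 to 7.13 on the other 3 arrays, in units of each array's 75th percentile.

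None of the 10 genes differed between KO and control by limma at a Benjamini-Hochberg adjusted p under 0.05, a threshold that 0 of the 37516 probes tested (0%) passed, and that 98 passed with control replicate 2 left out, none of them a member. The 2 probes of the deleted gene, Derl2, did not pass that threshold either (limma adjusted p 0.273 for each). Failing it therefore does not show that a gene is unchanged. Of the 17 probes, 16 were well above background on all 4 arrays, and their limma adjusted p ran from 0.334 to 0.987. The 17th, a dim Abca1 probe, is described with its gene. Levels below are log2 signals relative to the array's 75th percentile, so that 0 is the signal at that percentile, and they compare arrays, not probes. Taking the brightest probe of each gene, 8 genes were lower and 2 higher in KO, with a median log2 difference of -0.075, beside a median of -0.064 over all 16524 named genes read the same way. After scaling to spike-in probes, which raised every difference by 0.082, 4 of the 10 genes were lower. For each of the 10 brightest probes the whole 95% interval lay between 0.5-fold and 2-fold, from 65.2% to 138% of the control level. An exact permutation test of 2 against 2 arrays cannot go below a two-sided p of 0.333, so separation of the groups is given as a description. Both KO arrays lay below both controls on 8 of the 16 probes and above them on 0, beside 27.6% and 21.6% of the 35661 probes above background on all arrays. After spike-in scaling 4 of the 17 probes were separate and lower and 4 separate and higher, beside 15.4% and 32.3% of all probes. Counts over 17 probes include the dim Abca1 probe, which the filter kept through the KO arrays alone. At an unadjusted p under 0.05 in limma, 2 of the 16 were lower (5.15% of such probes were) and 0 higher (8.16%). For the brightest probes 5 of 10 genes were separate and lower, against 32.1% of named genes, and 0 were separate and higher, against 13.8%. With KO replicate 1 or 2 left out, 14 of the 17 probes were separate in place of 9, beside 78.2% and 77.3% of all probes in place of 49.3%.

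**Figure D1:**
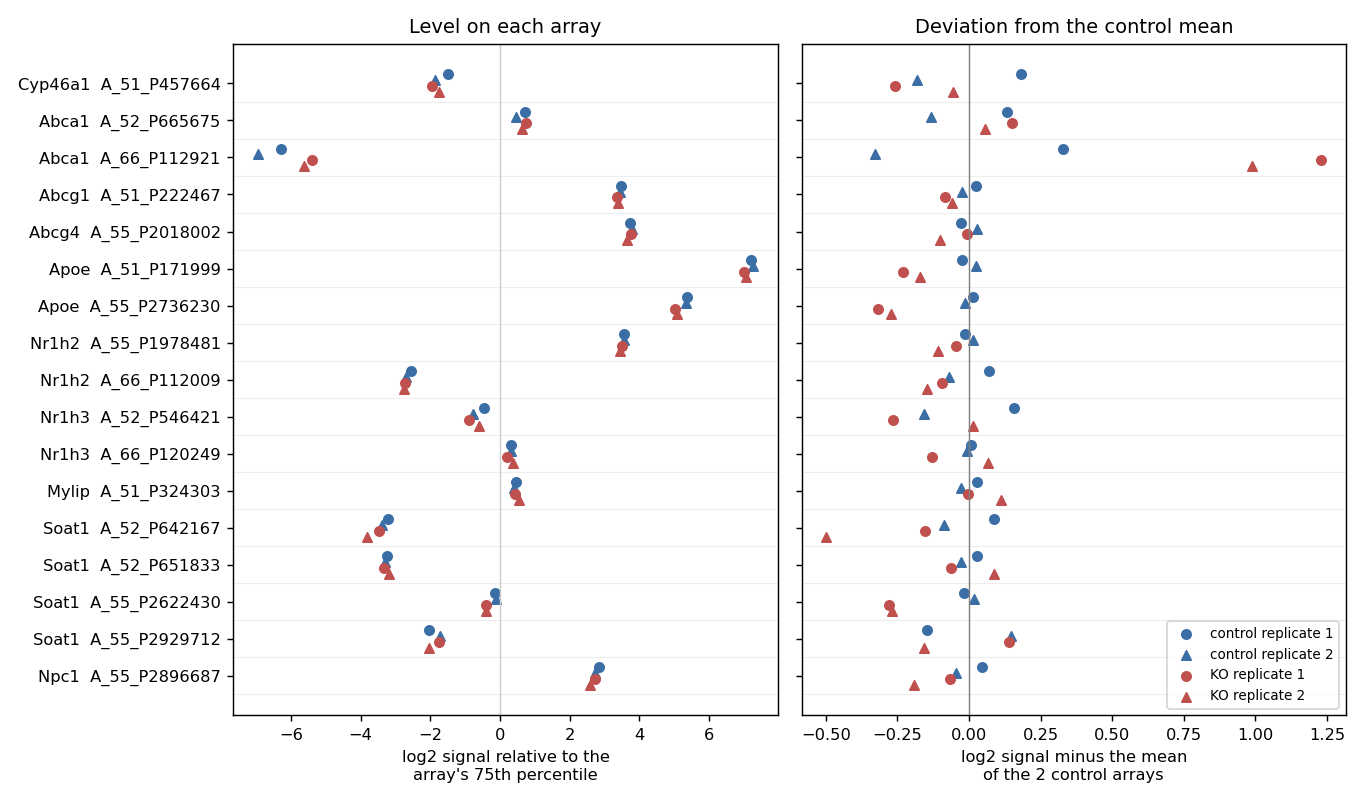
Log2 signal of the 17 probes on each of the 4 arrays (left, relative to the array's 75th percentile; levels of different probes are not comparable) and the same values minus the mean of the 2 control arrays (right); colours mark the group and symbols the replicate. Both Apoe probes and the Soat1 probe A_55_P2622430 show 2 tight pairs with KO below control, while the dim Abca1 probe A_66_P112921 lies near the background of the array.

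Turnover was read through Cyp46a1, the neuronal enzyme that makes 24S-hydroxycholesterol, which has 1 probe (A_51_P457664). It read -1.50 and -1.87 in control and -1.94 and -1.74 in KO. Control replicate 1 was the highest and the other 3 arrays lay together, so the groups overlapped. The difference was -0.16 (SE 0.17; limma adjusted p 0.692), and the KO level was 89.7% of control with a 95% interval from 65.2% to 123%. Without control replicate 1 the difference was 0.026. The lists of Purkinje and granule cell markers had median differences of -0.062 and -0.050.

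The LXR genes were measured by 2 probes each. For Nr1h2 (LXR beta, the form found in most tissues), the probe A_55_P1978481 read 3.55 and 3.58 in control and 3.52 and 3.46 in KO. Both KO arrays were the lower ones, by little: the difference was -0.077 (SE 0.099; limma adjusted p 0.741), and it was 0.0052 after spike-in scaling. Its dim probe A_66_P112009, listed for another transcript, read -2.55 and -2.69 in control and -2.71 and -2.77 in KO, a difference of -0.12 (SE 0.11) that was -0.049 without control replicate 1 and -0.038 after spike-in scaling. For Nr1h3 (LXR alpha, high in liver and macrophages), the probe A_66_P120249 read 0.33 and 0.32 in control and 0.19 and 0.39 in KO, with the KO arrays on either side of the controls. The difference was -0.031 (SE 0.12; limma adjusted p 0.916), and spike-in scaling turned it to 0.051. The other Nr1h3 probe, A_52_P546421, read -0.46 and -0.78 in control and -0.88 and -0.60 in KO, and its difference of -0.13 (SE 0.17) was smaller than the gap of 0.32 between the controls.

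Abca1, which loads cholesterol onto apolipoproteins at the cell surface, is the member with the best known LXR element in its promoter, so that sequence is shown. Abcg1, Abcg4 and Npc1 had no promoter window in the set used. The windows of a whole chromosome had been left out of that set, which need not account for all of these absences. RefSeq promoter windows (GRCm38.p6, 250 bases before to 50 after a start site) were at hand for 7 of the 10 genes, 10 windows in all. They were searched on both strands for the LXR direct repeat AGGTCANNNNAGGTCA, whose 12 fixed letters form 2 half-sites 4 bases apart. The 250 bases before the Abca1 start, chr4:53159896-53160145 on the minus strand, read as follows, with the closest match in capitals.
Abca1: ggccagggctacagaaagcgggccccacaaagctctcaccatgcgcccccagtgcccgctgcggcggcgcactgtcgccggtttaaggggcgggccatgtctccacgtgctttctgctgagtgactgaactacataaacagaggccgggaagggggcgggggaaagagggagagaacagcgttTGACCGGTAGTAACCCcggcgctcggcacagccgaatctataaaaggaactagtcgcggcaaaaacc

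The match lies from -67 to -52 relative to the start site and on the opposite strand, with 3 mismatches. The closest 16-base matches of Abca1, of Cyp46a1 (from -212 to -197) and of Mylip, a textbook LXR target, are shown to compare them, each read along the strand of the match, with letters that match the repeat in capitals.
Abca1: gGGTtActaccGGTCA
Cyp46a1: AGcTCAagagAGGgtA
Mylip: AGtTCccgggAGcTac

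Cyp46a1 also had 3 mismatches and Mylip 5. Of the 32851 windows of this length in the set, 21.9% held a match with at most 3 mismatches and 3.02% one with at most 2. None of the 10 member windows had fewer than 3. A match is a likeness of letters and not a measured binding site.

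On the brighter Abca1 probe, A_52_P665675, the level was 0.72 and 0.46 in control and 0.74 and 0.64 in KO. The groups overlapped, with control replicate 2 the lowest. The difference was 0.10 (SE 0.14; limma adjusted p 0.748), with an interval from 83.4% to 138% of the control level, and it was -0.029 without control replicate 2. The second probe for the same transcript, A_66_P112921, was well above background on both KO arrays and on neither control array. Its processed signal was 10.2 and 6.41 in control and 18.1 and 14.6 in KO, against 1311 and 1084 in control on the brighter probe. On the log2 scale the levels were -6.28 and -6.94 in control and -5.38 and -5.63 in KO, with measured means of -6.61 and -5.51. Only a bound can be given for such a probe, which was kept through the KO arrays alone. On the processed signal the KO mean was at least 1.31-fold higher. For each control array this takes the higher of the probe's own signal and the lowest signal that was well above background there. The bound carries no error: that lowest signal was -5.69 on control replicate 1, close to KO replicate 2 at -5.63. The bound, 0.39 on the log2 scale, lies within the interval of the brighter probe, so the probes are not shown to differ. After normexp background correction the groups of the dim probe stood 0.086 apart.

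The other exporters, ABCG1 and ABCG4, hand sterol to lipoprotein particles. Abcg1 (A_51_P222467), which acts after ABCA1 and is found in neurons and glia, read 3.48 and 3.44 in control and 3.37 and 3.40 in KO. Both KO arrays were below both controls, but the difference of -0.073 (SE 0.098; limma adjusted p 0.754) was small and stood at 0.0095 after spike-in scaling. Its interval ran from 79.2% to 114% of control. Abcg4 (A_55_P2018002), the neuronal relative of ABCG1, read 3.73 and 3.79 in control and 3.76 and 3.66 in KO, and KO replicate 1 lay between the controls. The difference was -0.054 (SE 0.10; limma adjusted p 0.828), and 0.028 after spike-in scaling. For Abcg1 the difference was more than the gap between arrays of 1 group, for Abcg4 it was not, and neither passed the threshold.

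Apoe, the main lipid carrier of the brain, was lower in KO on both of its probes. On A_51_P171999 the level was 7.22 and 7.27 in control and 7.01 and 7.07 in KO. The 2 pairs did not overlap, and each pair was tight, with gaps of 0.047 between the controls and 0.060 between the knockouts. The difference was -0.20 (SE 0.10; limma adjusted p 0.442), or 87.1% of control with an interval from 72.3% to 105%. On A_55_P2736230, listed for another Apoe transcript, the level was 5.37 and 5.34 in control and 5.04 and 5.09 in KO. The groups were again separate, with a difference of -0.29 (SE 0.098; limma unadjusted p 0.0362, adjusted p 0.334), or 81.6% of control with an interval from 67.9% to 98.0%. In both cases the difference was more than the gap between arrays of 1 group, and neither passed the adjusted threshold. The first probe moved to -0.13 with quantile normalization and to -0.12 with spike-in scaling, and the second to -0.23 and -0.21.

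Bulk RNA cannot separate fewer cells of a type from less RNA per cell, so the marker lists of cells that express Apoe are set beside it. Of 8 astrocyte and Bergmann glia markers, 5 were lower and 3 higher in KO, with a median of -0.062; their summed signal was 380 and 381 in control and 374 and 389 in KO, in units of the 75th percentile. Of 8 microglia markers, all 8 were lower, with a median of -0.23; their summed signal was 22.9 and 22.4 in control and 17.8 and 20.9 in KO. Of 6 meningeal fibroblast markers, 5 were lower and 1 higher, with a median of -0.20. Lum, Igf2 and Dcn differed by -0.52, -0.49 and -0.35, and Col1a2, Col1a1 and Slc6a13 by -0.045, -0.0055 and 0.021. The 6 summed to 32.4 and 33.3 in control and 26.1 and 31.7 in KO. Every one of these markers was well above background on all 4 arrays. Of all named genes, 63.9% were lower in KO, with a median of -0.064. The microglia median was -0.35 for KO replicate 1 against either control. For KO replicate 2 it was -0.14 and -0.098 against control replicates 1 and 2. The part of these cells in the Apoe difference was not tested. Choroid plexus markers were high on control replicate 2 alone, where Apoe (A_51_P171999) was 0.047 above control replicate 1. Without that array the 2 Apoe differences were -0.18 and -0.31.

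**Figure D2:**
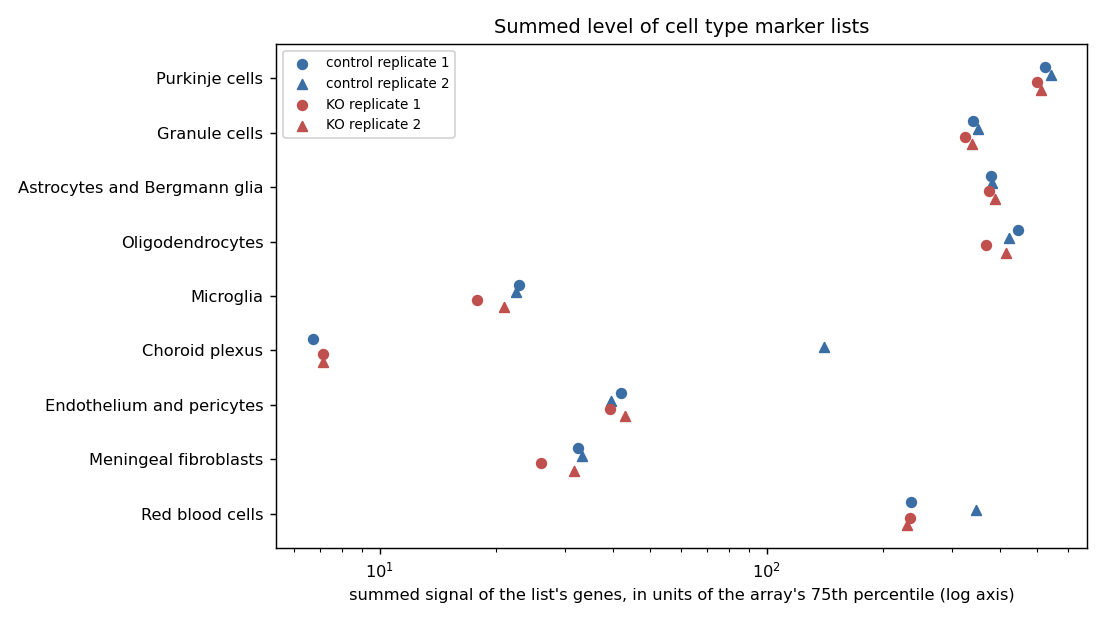
Summed signal of 9 lists of cell type markers on each array (x axis, logarithmic, in units of the array's 75th percentile; 1 brightest probe per gene; colours mark the group and symbols the replicate). The choroid plexus list stands at 140 on control replicate 2 and at 6.71 to 7.13 elsewhere, and the microglia list is below both controls on both KO arrays.

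Mylip (A_51_P324303), the ligase that removes lipoprotein receptors, read 0.46 and 0.40 in control and 0.42 and 0.54 in KO. KO replicate 1 lay between the controls. The difference was 0.054 (SE 0.11; limma adjusted p 0.831), with an interval from 85.3% to 126% of control, and -0.0020 without KO replicate 2.

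Soat1, which stores cholesterol as esters in the endoplasmic reticulum, was measured by 4 probes that list 1 transcript and did not give the same picture. The brightest, A_55_P2622430, read -0.14 and -0.11 in control and -0.40 and -0.39 in KO. Its groups were separate, with gaps of only 0.035 and 0.011 within them. The difference was -0.27 (SE 0.097; limma unadjusted p 0.0440, adjusted p 0.346), or 82.7% of control with an interval from 69.0% to 99.2%, and it ran from -0.29 to -0.19 over the alternatives. The dim probe A_52_P642167 read -3.22 and -3.40 in control and -3.46 and -3.81 in KO, a difference of -0.33 (SE 0.16; limma adjusted p 0.441) that was -0.15 after normexp correction or without KO replicate 2. The 2 other probes overlapped. A_55_P2929712 read -2.02 and -1.73 in control and -1.74 and -2.03 in KO, a difference of -0.0082 (SE 0.17). A_52_P651833 read -3.23 and -3.29 in control and -3.32 and -3.17 in KO, a difference of 0.013 (SE 0.11). The files give no probe positions within the transcript.

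Npc1, the lysosomal protein that releases cholesterol taken up with lipoproteins, has 1 probe (A_55_P2896687). Its level was 2.84 and 2.74 in control and 2.72 and 2.60 in KO. The groups were separate by less than the gap within either, and the difference was -0.13 (SE 0.11; limma adjusted p 0.614), or 91.4% of control with an interval from 74.5% to 112%. It was -0.048 after spike-in scaling.

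**Figure D3:**
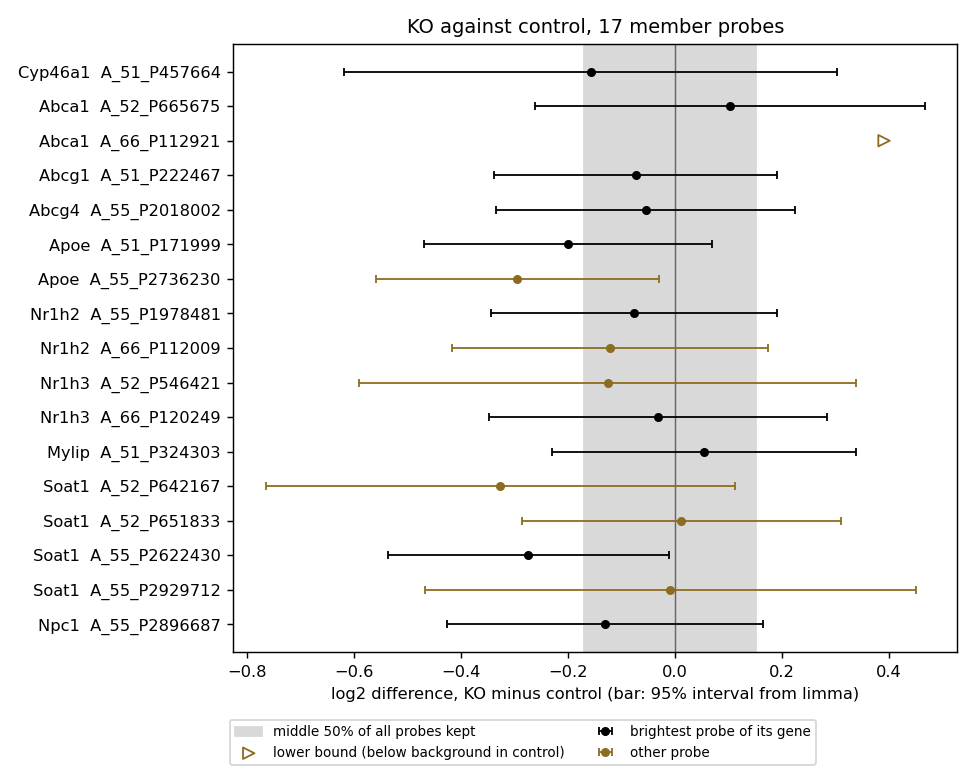
Log2 difference between KO and control for 16 probes (points) with the 95% interval from limma (bars), 2 arrays per group, and the lower bound for the dim Abca1 probe (open triangle); the grey band holds the middle 50% of all 37516 probes tested. The intervals of 14 probes hold 0, those of 1 Apoe and 1 Soat1 probe lie below it, and the bound of the dim Abca1 probe is 0.39.

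Further genes of sterol handling were read from 5 lists, of which 48 of 50 genes were measured above background; Abcg5 and Cyp7a1 were not. At an adjusted p under 0.05, 0 of the 48 passed in limma; 33 were lower and 15 higher (63.9% of all named genes were lower), with a median of -0.058, beside -0.064 over all named genes. Both KO arrays were below both controls for 17 of the 48 genes and above them for 5, beside 32.1% and 13.8% of all named genes. With KO replicate 1 left out 38 were separate and with KO replicate 2 left out 42, beside 76.9% of all named genes in either case. At an unadjusted p under 0.05, 4 of the 48 were lower and 0 higher, beside 5.65% and 3.16% of all named genes. These shares lie near those of all named genes.

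Among the partners and co-regulators of LXR, 3 of 6 genes were lower and 3 higher. Rxrg, a retinoid X receptor gene, had the smallest p, at -2.61 and -2.48 in control and -3.12 and -2.83 in KO (difference -0.43, SE 0.14; limma adjusted p 0.334), and its groups were separate. The other retinoid X receptor genes, Rxra and Rxrb, had differences of 0.076 and -0.055.

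Of 12 other LXR target genes measured, 7 were lower and 5 higher. Lpl, which encodes lipoprotein lipase, was -2.71 and -2.67 in control and -3.65 and -3.17 in KO (difference -0.72, SE 0.19; limma adjusted p 0.290), and Smpdl3a, a phosphodiesterase gene, differed by -0.33 (SE 0.16). Srebf1, the LXR target that drives fatty acid synthesis, overlapped between the groups, at 2.90 and 2.81 in control and 2.95 and 2.38 in KO. Its lipogenic companions Scd2, Fasn and Acaca differed by -0.11, 0.078 and 0.046. The list as a whole had a median of -0.086, which was -0.026 without KO replicate 2 and -0.052 without control replicate 2.

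Of 11 lipoprotein carriers and receptors, 7 were lower and 4 higher, where 63.9% of all named genes were lower. Lcat and Clu had the smallest p of the list. Lcat, which esterifies cholesterol on lipoprotein particles, was 1.79 and 1.93 in control and 1.33 and 1.48 in KO (difference -0.45, SE 0.12; limma adjusted p 0.288). Clu, the carrier also called apolipoprotein J, was 6.76 and 6.79 in control and 6.38 and 6.55 in KO (difference -0.32, SE 0.11; limma adjusted p 0.346). Apod, made largely by oligodendrocytes, differed by -0.32 as well (SE 0.13). Of 8 oligodendrocyte markers, all 8 were lower, with a median of -0.20, and their summed signal was 446 and 423 in control and 368 and 416 in KO; their part in the Apod difference was not tested. The receptor genes Vldlr, Lrp1 and Lrp8 were nearer to 0, at -0.038, 0.065 and 0.054, and the groups overlapped for each.

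Of 6 oxysterol enzymes, 4 were lower and 2 higher. Ch25h, which makes 25-hydroxycholesterol, had the largest difference, 1.09 (SE 0.69; limma adjusted p 0.518), and it rested on 1 array: the level was -4.11 and -4.30 in control and -4.12 in KO replicate 1, and -2.11 in KO replicate 2. Cyp39a1, which acts on 24-hydroxycholesterol, differed by -0.22 (SE 0.15). Of 13 genes of intracellular sterol transport and ester handling, 12 were lower and 1 higher, where 63.9% of all named genes were lower. The median of the list was -0.11, and -0.043 without control replicate 1. It was -0.024 after spike-in scaling, which raised every difference by 0.082. Npc2, the partner of NPC1 in the lysosome, was 2.45 and 2.51 in control and 2.05 and 2.33 in KO (difference -0.29, SE 0.14; limma adjusted p 0.420). Soat2, the single higher one, is a paralogue of Soat1 and was well above background on 3 arrays only, at -5.76 and -5.40 in control and -5.34 and -5.29 in KO.

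**Figure D4:**
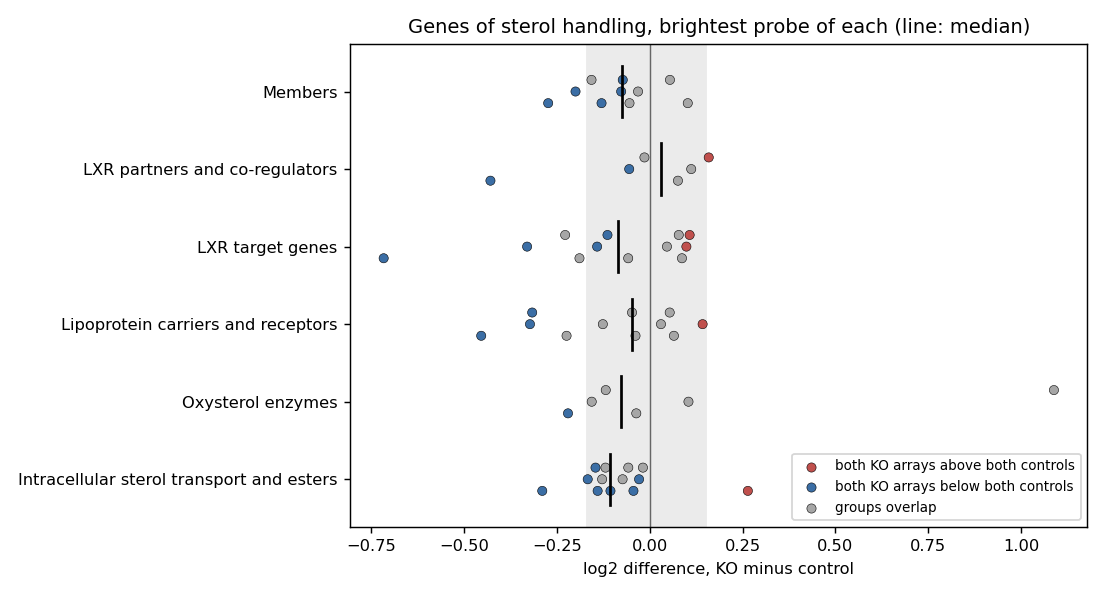
Log2 difference between KO and control for the 10 members and for 48 further genes in 5 lists (1 brightest probe per gene); the vertical line in each row is the median, the grey band holds the middle 50% of all probes, and the colour says whether the 2 groups of 2 arrays are separate. List medians lie between -0.11 and 0.031, and the point at 1.09 is Ch25h, which is high on KO replicate 2 alone.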

How the data were processed

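Per the file headers, Agilent Feature Extraction 12.1.1.1 wrote the deposited scanner output; the submitters' processing notes name version 10.7.1.1. Their processed signal is a background-subtracted intensity, not normalized between arrays. From it, log2 values were taken per probe, spots with an outlier flag were left out, and the 75th percentile of each array was set to 0. Of the other deposited columns, the median spot and local background intensities served an alternative and a check for raised background, and the flags (other values, not measurements) the filters. A probe was kept if both arrays of control or both of KO were well above background, which left 37516 of 56605. Of 35886 probes with a RefSeq accession, 91.9% were named through a GRCm38.p6 table. Each member probe is 1 spot; none was flagged or lay on a patch of raised local background.

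The difference, KO minus control, was fitted with limma 3.58.1 (R 4.3.3; lmFit, eBayes, 4.35 degrees of freedom), with Benjamini-Hochberg adjustment over all probes kept, and the fit was tested on simulated data. Nothing in the labels says that arrays of 1 group come from separate litters or extractions, so p-values measure the spread between these 4 arrays. Members, lists and tests were chosen with earlier results of these data known. Named were all member probes and the 2 genes of smallest p in each list, except 1 gene that is not reported here; Rxra, Rxrb, Srebf1, Scd2, Fasn, Acaca, Apod, Vldlr, Lrp1 and Lrp8 were named after their values were seen.

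Alternatives changed the scaling (quantile, median or spike-in probes), the background correction (normexp, offset 50, on median spot signals), the filters, the variance model, the replicate block and the arrays included. The deposited log2 values of the series table, a further alternative, followed the authors' own processing. Differences between its columns equalled those of the scaled scanner values within 0.01 for 100% of 35661 probes; the value each probe was centred on is unknown, and its column medians were 0.0071, -0.19, -0.16 and -0.22.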

Additional observations from a re-analysis of the deposited data

How the results depend on the processing

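No member probe and no gene of the 5 lists passed the adjusted threshold under any alternative run. Of 254 values of the 17 probes under alternatives, 237 kept their direction and 17 did not, with sizes up to 0.14. The background filters, the variance model and the replicate block left each difference as it was, so their values could not turn. Scaling to the median, keeping flagged spots, leaving out patch spots and the deposited log2 values shifted all member differences almost alike. Each of these shifts was smaller in size than the smallest member difference (-0.0082), so those values could not turn either. Both Apoe probes, the Npc1 probe and the Soat1 probes A_55_P2622430 and A_52_P642167 kept their direction throughout. So did Nr1h2 A_66_P112009 (-0.19 to -0.038). The dim Abca1 probe A_66_P112921 was higher in KO throughout (0.086 to 1.44). The filter kept that probe through the KO arrays alone, so its direction adds no support, and only the bound given above applies. Scaling to 6 spike-in probes raised every log2 difference by the same 0.082. The median over all probes tested went from -0.028 to 0.054. With this shift 4 of 10 members were lower in place of 8. The sign turned for Abcg1 (0.0095), Abcg4 (0.028), Nr1h2 A_55_P1978481 (0.0052), Nr1h3 A_66_P120249 (0.051) and Soat1 A_55_P2929712 (0.074). The median over members was 0.0073 in place of -0.075. That median was -0.026 after quantile normalization and -0.041 after normexp, under which Soat1 A_55_P2929712 was 0.012 and 0.0011. With 1 array left out, separate probes ran from 11 to 14 of 17, beside 70.4% to 78.2% of all probes. In those runs the ranges of the probes that turned were -0.029 to 0.23 for Abca1 A_52_P665675, -0.34 to 0.026 for Cyp46a1 and -0.0020 to 0.11 for Mylip. They were -0.28 to 0.033 for Nr1h3 A_52_P546421, -0.13 to 0.066 for Nr1h3 A_66_P120249, -0.062 to 0.087 for Soat1 A_52_P651833 and -0.16 to 0.14 for Soat1 A_55_P2929712. List medians moved too: after spike-in scaling they were 0.11 for LXR partners, -0.0039 for LXR targets and -0.024 for sterol transport, and without KO replicate 1 the lipoprotein list was at 0.041 in place of -0.048. Without control replicate 1 the LXR partners were at -0.029 in place of 0.031, and without KO replicate 2 the oxysterol enzymes at -0.17 in place of -0.077. Apart from the shift that spike-in scaling gives to every probe, the causes were not tested. With the replicate number as a replicate block, the Apoe difference of -0.20 had a limma adjusted p of 0.397 and no call changed; same-numbered arrays deviated with a correlation of 0.12 across probes, and nothing in the labels pairs them. A lone array in a group is assumed to vary like the other group. The number of arrays limits every value, and dim probes such as A_66_P112921 carry little signal over background.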

Other observations

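Car8, a Purkinje cell marker in the lists used here, encodes a carbonic anhydrase-related protein that binds an inositol trisphosphate receptor. It was low on 1 array on both of its probes. The log2 level of A_51_P392005 was 4.06 and 3.34 in control, 0.14 in KO replicate 1 and 4.06 in KO replicate 2. The second probe, A_66_P126640, read 3.99 and 3.13 in control, 1.02 in KO replicate 1 and 3.78 in KO replicate 2. The other 5 Purkinje cell markers (Pcp2, Calb1, Itpr1, Ppp1r17 and Slc1a6) had differences between KO and control from -0.25 to 0.058. Car8 was picked out after its values were seen, and its cause was not tested.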
